A study of Mus musculus with 3 samples.

Results

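The replication-dependent histone genes were followed across the cells of mouse brains that carried breast carcinoma metastases. The members were all genes of the feature table whose symbol begins with Hist1h, Hist2h, Hist3h or Hist4, with pseudogenes left out. There were 67 such genes among 31062, namely 6 of class H1, 18 of H2A, 18 of H2B, 12 of H3 and 13 of H4. The Hist1 cluster held 54 of them, Hist2 held 10, Hist3 held 2 and Hist4 held 1.

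The study profiled cells from the brains of female C57Bl/6 mice, 2 to 3 months old, by CITE-seq, which reads transcripts, antibody tags and sample hashtags from the same droplets. Metastases had been seeded by injecting E0771 cells, a mouse mammary carcinoma line, into the carotid artery, and all 8 hashed samples came from brains with metastases. Some mice received antibodies to VISTA and PD-L1, which are checkpoint proteins that restrain T cells, every other day from day 3 after the injection, and the others did not. The cell suspensions were enriched for immune cells on a Percoll gradient, hashed, pooled and loaded in 1 capture. No source used here links a hashtag to a treatment, so treated and untreated brains were not compared. The labels give 1, 2 and 3 brain hemispheres per sample for the transcript, antibody and hashtag libraries of the same pool, and nothing says that each hashtag was a separate animal. The p-values below therefore measure only the spread between hashtag samples, which may be technical.

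Histones package DNA: a pair each of H2A, H2B, H3 and H4 proteins forms the core around which DNA winds, and H1 binds the linker between cores. The replication-dependent genes lie in clusters, are transcribed mainly in S phase when new chromatin is built, and normally give mRNAs that end in a stem-loop rather than a poly(A) tail. The stem-loop is bound by Slbp, and Npat drives transcription of the clusters. The libraries were primed on poly(A), so every level below is that of transcripts captured by such priming and not of all histone mRNA. Many members have near-identical copies, so reads could have been split or lost between them, and the values of single genes are uncertain to that extent. The counts are not per length, so shares of UMIs among members describe the molecules captured and do not rank the genes by level.

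Promoter sequences are shown for 6 members whose levels differed in direction or size between the cells compared below. They are the 150 bases before the annotated start, written 5′ to 3′ on the gene's strand, from RefSeq on build GRCm38.p6. Capitals mark exact matches on either strand to CCAAT, to the TATA motif TATAAA, to the octamer ATTTGCAT of H2A and H2B promoters, and to AAACACA, known from H1 promoters. CCAAT reads ATTGG on the other strand, and none of the 4 motifs contains another.
Hist1h1b promoter, chr13:21780626-21780775, minus strand: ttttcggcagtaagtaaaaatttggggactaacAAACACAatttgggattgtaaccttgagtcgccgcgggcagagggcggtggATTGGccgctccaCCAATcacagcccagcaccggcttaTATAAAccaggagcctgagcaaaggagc
Hist1h1c promoter, chr13:23738657-23738806, plus strand: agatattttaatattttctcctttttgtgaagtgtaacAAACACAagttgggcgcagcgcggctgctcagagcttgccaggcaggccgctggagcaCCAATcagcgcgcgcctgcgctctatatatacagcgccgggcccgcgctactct
Hist1h2bm promoter, chr13:21721894-21722043, plus strand: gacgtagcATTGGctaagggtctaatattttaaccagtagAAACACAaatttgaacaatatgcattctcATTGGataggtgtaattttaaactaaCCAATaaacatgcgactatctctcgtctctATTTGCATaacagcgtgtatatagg
Hist1h2bj promoter, chr13:22043048-22043197, plus strand: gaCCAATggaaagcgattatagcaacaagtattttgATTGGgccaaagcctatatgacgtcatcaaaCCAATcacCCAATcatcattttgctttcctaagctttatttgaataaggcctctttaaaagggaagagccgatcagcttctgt
Hist1h4d promoter, chr13:23581418-23581567, plus strand: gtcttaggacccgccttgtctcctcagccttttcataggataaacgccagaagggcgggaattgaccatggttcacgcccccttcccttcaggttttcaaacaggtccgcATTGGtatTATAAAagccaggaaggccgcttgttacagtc
Hist1h4i promoter, chr13:22041363-22041512, minus strand: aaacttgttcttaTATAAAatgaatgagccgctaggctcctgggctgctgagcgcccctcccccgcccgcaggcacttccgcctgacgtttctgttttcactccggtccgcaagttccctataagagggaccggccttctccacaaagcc

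Hist1h1b and Hist1h1c carry AAACACA and CCAAT in these windows, and Hist1h1b also carries TATAAA. Of the H2B pair, Hist1h2bm carries the octamer and Hist1h2bj does not. Of the 67 members, 66 matched 1 RefSeq gene and 60 had 1 promoter. In the 250 bases before the start, CCAAT was present in 49 of these 60 (81.7%), against 33.8% of 32851 promoters of all genes. All 6 H1, 17 H2A and 15 H2B promoters held it, and 3 of 12 H4 promoters did. TATAAA was present in 29 (48.3%), against 12.4% of all promoters. The octamer was present in 13 (21.7%), of which 7 were H2A and 6 H2B, against 1.6% of all promoters. AAACACA was present in 5 of 6 H1 promoters (83.3%), against 6.25% of all promoters. A match describes letters only and is not evidence of a bound site.

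The count matrix held 12908 barcodes, of which 12334 were kept, and hashtag calling gave 9896 singlets. The 8 hashtag samples held 100 to 2316 singlets and 4898693 to 125193153 unique molecular identifiers (UMIs, the molecules counted) each. In the kept barcodes 601624 UMIs came from members. No UMI was found for 2 members, Hist2h2aa2 and Hist1h2bq.

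Barcodes were gated by the UMIs of marker genes. The carcinoma label rested on Krt8 alone, a keratin of simple epithelia, so these barcodes are called Krt8-high: Krt8 at or above 100 CPM (UMIs scaled to a common total per barcode or summed sample) with at least 5 UMIs, Ptprc below 20 CPM and no other gate. Krt8 itself had a median over 8 hashtag samples of 380.7 CPM, which follows from the gate, and 11.93 CPM in immune barcodes. The other epithelial markers were low. Krt18 had a median of 4.173 CPM in Krt8-high and 0.3609 CPM in immune barcodes. Epcam, with 0.1515 and 4.501 CPM, and Cdh1, with 0.03449 and 2.955 CPM, lay the other way. Krt7, Krt19 and Cldn7 were near 0 on both sides. Cldn4 had 0 UMIs on both sides. Ptprc, the pan-leukocyte gene, was at 1.397 CPM in Krt8-high and 732.8 CPM in immune barcodes. The summed 10 T cell markers were at 2.515 to 4.395 CPM in Krt8-high samples and 477.7 to 1901 CPM in immune samples. The summed 10 microglia markers were at 505.6 to 758.8 CPM in Krt8-high samples. Most of that was Sparc (median 538.2 CPM), while P2ry12 was at 0.2522 CPM and Tmem119 at 0.706 CPM. There were 4429 Krt8-high singlets with a median of 84788 UMIs and 4237 immune singlets with a median of 8314 UMIs. Hashtag sample 1 held 31 immune barcodes, the fewest.

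Summed over all 67 members, the histone level was highest in Krt8-high barcodes and lowest in inflammatory monocytes. In Krt8-high barcodes it was 858.6 CPM in the lowest hashtag sample, 1020 at the median and 1121 in the highest (n = 8). In all immune barcodes the values were 338.3, 437.2 and 1035 CPM (n = 8). The groups overlapped only through hashtag sample 1, whose immune value was 1035 CPM, since the next highest immune value was 478.6 CPM. A sum from fewer cycling cells and a sum from less histone RNA per cell cannot be told apart in these levels.

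Among the gated types, endothelial cells, which line the vessels, had 409 CPM at the lowest, 847.7 at the median and 1003 at the highest (n = 7). T cells had 247, 745.8 and 1307 CPM (n = 6), and NK cells, the innate cytotoxic lymphocytes, had 354, 580.8 and 1239 CPM (n = 6). Microglia, the resident macrophages of the brain, had 345, 576.3 and 1032 CPM (n = 4). Each of these 4 types overlapped its neighbours in that order, and each reached into the Krt8-high range. Tumour-associated macrophages had 283.9, 372.5 and 422.2 CPM (n = 7), and inflammatory monocytes had 151.9, 215.2 and 727.2 CPM (n = 7). Both myeloid types lay below every Krt8-high sample. The monocyte value of 727.2 CPM came from hashtag sample 4, and the other monocyte samples reached 276.8 CPM at most.

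**Figure D1:**
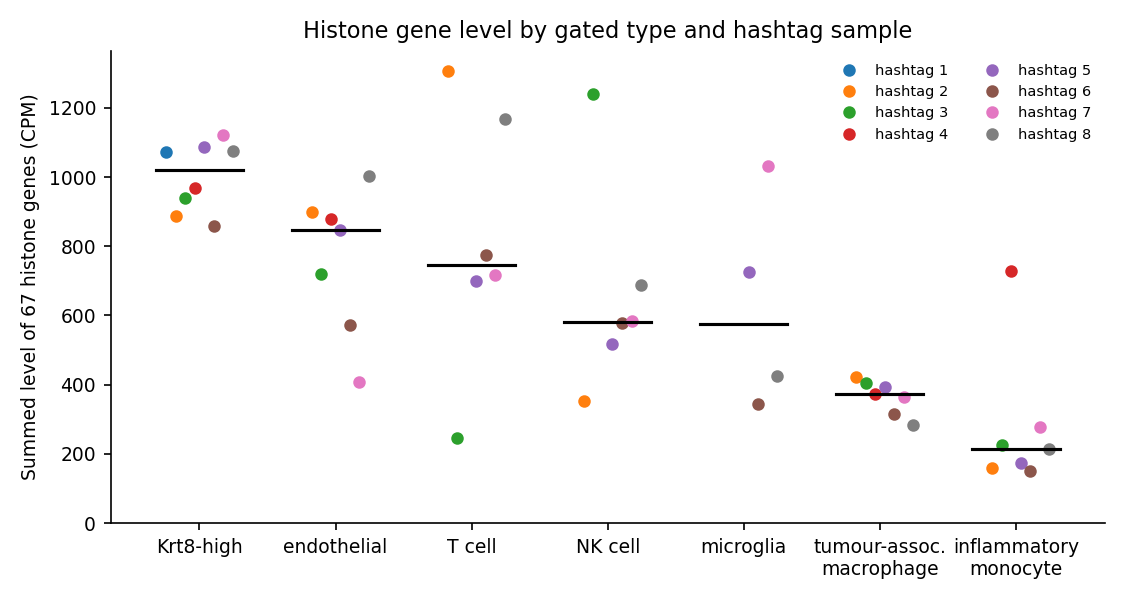
Summed level of the 67 histone genes (vertical axis, CPM from 0) in each gated type; each point is 1 hashtag sample and each bar the median over samples. Krt8-high samples lie between 858.6 and 1121 CPM, monocytes have a median of 215.2 CPM, and T cells spread from 247 to 1307 CPM.

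Because depth differed, each barcode was also thinned to 3000 UMIs. A member UMI was then present in a median of 64.85% of Krt8-high barcodes per hashtag sample (99.85% without thinning), of 39.22% of monocytes (69.92%) and of 64.32% of NK cells (79.6%). Thinning left out 1 Krt8-high barcode, 49 monocytes and 72 NK cells for lack of depth. H1 genes gave 38.44% of the member UMIs in Krt8-high and 37.81% in immune barcodes. H2A genes gave 40.14% and 30.7%, H2B genes 8.312% and 13.01%, H3 genes 5.823% and 5.738%, and H4 genes 7.278% and 12.74%. In Krt8-high barcodes Hist1h2ap, Hist1h1b, Hist1h1e and Hist1h2ae together gave 59.97% of the member UMIs.

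Counts summed per hashtag sample were then compared between Krt8-high and immune barcodes, with edgeR's quasi-likelihood test and Benjamini-Hochberg adjustment over 11959 genes at an adjusted p of 0.05. Of the 67 members, 47 passed the filter on low counts. Of these, 29 were higher in Krt8-high barcodes, against 41.3% of all tested genes, and 7 were lower, against 44.8%. The median member difference was 0.80 on the log2 scale, against -0.05 for all tested genes. Scaling by library totals alone moved the median of all genes to 0.34. It gave 36 members higher and 6 lower and turned the sign of Hist2h4, Hist1h2bc and Hist1h3a, none of which was called under either scaling. The share of all genes called was not taken under library totals. Krt8-high samples all lay above the immune samples for 11 of the 47 members, against 36.8% of all tested genes, and all below for 5, against 25.4%. The filter asks for 0.8123 CPM in enough samples, and 4 of the 7 lower members (Hist1h4i, Hist1h2bj, Hist3h2ba and Hist1h2af) met that limit in immune samples only. A member that enters the test this way has to differ, so those 4 calls are not support for a direction. The 29 higher members include Hist1h2bl, Hist1h2ai, Hist1h2ad, Hist1h3g and Hist1h4j. Each of these met the limit in only a single immune sample, so their calls are not support either.

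The linker histones H1 were higher for 4 of 5 tested members, against 41.3% of all tested genes. Hist1h1b (H1.5) was at 171.3 CPM at the median in Krt8-high and 46.95 CPM in immune barcodes, and its log2 difference was 1.34 (SE 0.09, adjusted p = 7.7e-10). Hist1h1e (H1.4) rose by 0.99, Hist1h1d (H1.3) by 1.61 and Hist1h1a (H1.1) by 1.08. Hist1h1c (H1.2) was the exception. It had 48.22 CPM in Krt8-high and 50.29 CPM in immune barcodes and fell by 0.50 (SE 0.12, adjusted p = 0.00078). That call was lost with library totals, under which the difference was -0.12.

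Of the core H2A genes, 9 of 12 tested were higher, against 41.3% of all tested genes, and 2 lower, against 44.8%. Hist1h2ap was at 152.2 CPM in the lowest, 180.5 at the median and 215.1 in the highest Krt8-high sample, and at 25.19, 28.5 and 104.1 CPM in immune samples. The ranges did not overlap, and the log2 difference was 2.14 (SE 0.13, adjusted p = 1.06e-10). This gene matched more than 1 RefSeq gene, so its reads may come from copies. Hist2h2ac rose by 1.65, Hist1h2an by 1.75 and Hist1h2ae by 1.12. The 9 include Hist1h2ai and Hist1h2ad. On the immune side Hist1h2ai met the filter's limit only in hashtag sample 2, at 1.111 CPM, and Hist1h2ad only in hashtag sample 4, at 1.008 CPM. The test adds nothing to the counts of these members. Hist3h2a, at 15.31 CPM in Krt8-high and 30.49 CPM in immune barcodes, fell by 1.48. Hist1h2af, with a fitted value of -3.54, had 0.334 CPM at the median in Krt8-high and 3.168 CPM in immune barcodes.

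Of the H2B genes, 6 of 13 tested were higher, against 41.3% of all tested genes, and 2 lower, against 44.8%. The count of higher H2B genes is close to the share of all genes. Hist1h2bl stood out by its counts, with 564 UMIs in Krt8-high and 2 in immune barcodes. Over pooled barcodes this is 31.95-fold (exact 95% interval 8.805 to 264.5, for counting error only), and edgeR's fitted log2 value was 4.51. On the immune side only hashtag sample 4, at 1.008 CPM, met the filter's limit, so the test adds nothing to these counts. Hist1h2bm rose by 1.48 and Hist2h2bb by 1.51. Hist1h2bc was at 37.72 CPM in Krt8-high and 28.03 CPM in immune barcodes, with a log2 difference of -0.11 (adjusted p = 0.457). Hist1h2bj and Hist3h2ba were lower and are described with their neighbours below.

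Of 9 tested H3 genes 7 were higher, against 41.3% of all tested genes, and the others were not called. The largest differences were those of Hist1h3b, with 1.78 (SE 0.26), Hist1h3g, with 1.74 (SE 0.39), and Hist1h3c, with 1.26 (SE 0.18). The immune counts behind the first and second were 30 and 12 UMIs. For Hist1h3g only hashtag sample 4, at 1.008 CPM, met the filter's limit on the immune side, so the test adds nothing to its counts. Of the H4 genes, 3 of 8 tested were higher, close to the 41.3% of all tested genes, and 2 lower, against 44.8%. Hist1h4d rose by 0.67 (SE 0.09), and Hist1h4c fell by 1.04 (SE 0.20). Hist1h4j had a fitted value of 2.06 (SE 0.44), with 553 UMIs in Krt8-high and 12 in immune barcodes. On the immune side only hashtag sample 1, at 2.892 CPM, met the limit for Hist1h4j, so the test adds nothing there either. Hist1h4h, with 0.29, and Hist4h4, with 0.44, were not called. The classes were not tested against each other.

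**Figure D2:**
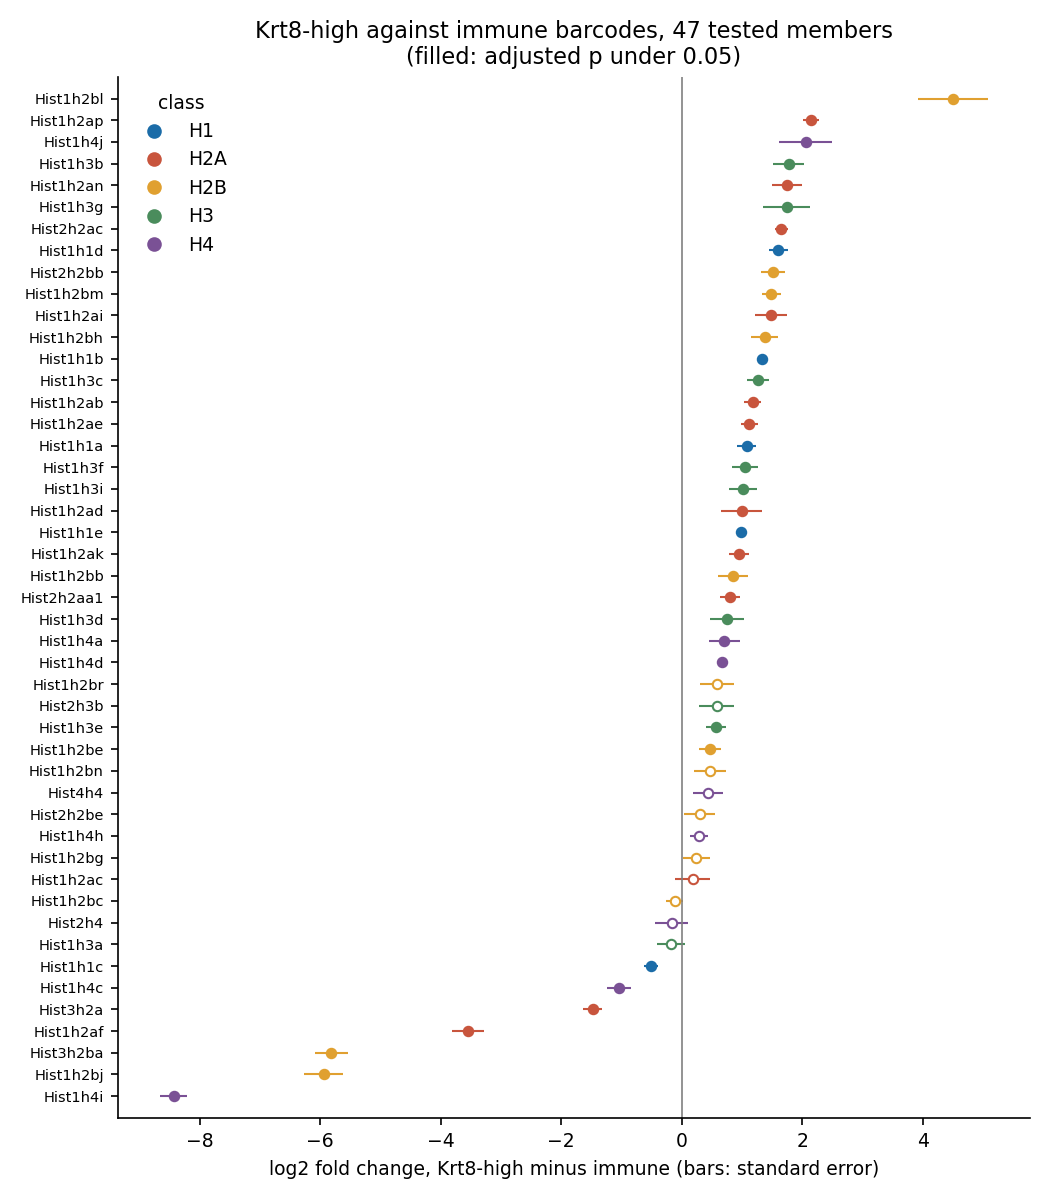
Log2 difference, Krt8-high minus immune, of the 47 tested members (horizontal axis), with bars for the standard error and filled points for adjusted p under 0.05. The values run from -8.43 for Hist1h4i to 4.51 for Hist1h2bl.

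The comparison was repeated within bins of the cell cycle scores described below. The bins were cut separately on each side, at 40 of 20000 and 4 of 3000 S-phase UMIs, and do not match the sides. Among barcodes low for both scores, 4 of 21 tested members were higher in Krt8-high, against 42.8% of all tested genes, and 8 were lower, against 41.7%. The member median was then -0.20, while 33 of the 40 S-phase genes were still higher in Krt8-high, with a median of 1.32. Among barcodes high for both, 1 of 47 was higher, against 30.7%, and 23 were lower, against 26.7%, with a median of -0.85 over hashtag samples 5 to 8. There 15 of the 40 S-phase genes and 21 of 49 G2 and mitosis genes were lower too. Hist1h1b, for example, had 1.34 over all barcodes, -0.18 (adjusted p = 0.425) in the low bin and -0.81 (adjusted p = 0.000106) in the bin high for both. Hist1h4d had 0.67, -0.86 and -0.96. These restricted comparisons were chosen after the first one had been seen.

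Hist1h4i, an H4 gene, and Hist1h2bj, an H2B gene, stood close together on chromosome 13 and were nearly absent from Krt8-high barcodes. Hist1h4i had 0 CPM in the lowest, 0.03817 at the median and 0.06898 in the highest Krt8-high sample, against 9.068, 12.54 and 34.7 CPM in immune samples. The sides did not overlap, and 18 UMIs of 401379556 stood against 602 of 45481926. The fitted log2 value was -8.43, for a gene tested only through its immune level. Pooled over barcodes, it was 295.1-fold higher in immune barcodes (exact 95% interval 185.1 to 501.4, counting error only). Hist1h2bj had 36 UMIs against 214, a 52.46-fold difference (36.73 to 76.91).

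RefSeq places 53 members on chromosome 13, in 3 runs. The first, of 17 members (chr13:21715711-21837530), had 3.094 times the pooled level in Krt8-high as in immune barcodes. The third, of 31 members (chr13:23531044-23934913), had 2.013 times the immune level. The short run between them (chr13:22035122-22043658) holds Hist1h2ah, Hist1h2bk, Hist1h4i, Hist1h2ag and Hist1h2bj, and there the ratio was 0.01425, with 0.2666 CPM against 18.71 CPM. Hist1h2bk had 0 UMIs against 9, which is at least 26.48-fold lower with the pooled Krt8-high count set at the floor of 3. Hist1h2ag had 53 UMIs against 24 and was 3.996-fold higher in immune barcodes (2.359 to 6.588). Hist1h2ah had 0 against 2 UMIs, too few for a fold. The non-histone neighbours Zfp184, a zinc finger gene, had 0 against 5 UMIs, at least 14.71-fold lower. Prss16, a serine protease gene, had 1 against 34 UMIs, a ratio of 300.1 with an exact 95% counting interval of 50.34 to 12200. Abt1 and Zfp322a, also on chromosome 13, were not lower, with 28.18 against 18.71 CPM and 13.08 against 8.817 CPM. The run, the neighbours and these 3 sparse members were singled out after their values were seen. No DNA measurement was used, and a cause was not tested.

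Low levels were not limited to that run. Hist1h2af, an H2A gene of the third run, was 9.159-fold lower (7.159 to 11.72) in pooled Krt8-high than in immune barcodes. Hist3h2ba, an H2B gene on chromosome 11, was 46.04-fold lower (33.47 to 64.58), while its cluster neighbour Hist3h2a was 2.171-fold lower (2.048 to 2.3). Each of the immune types tested had Hist1h4i at a pooled level of 10.22 to 21.36 CPM, and endothelial cells had 16.97 CPM. Hist3h2ba had 24 UMIs and 70.58 CPM in plasmacytoid dendritic cells, against 2.722 CPM in monocytes and 10.4 CPM in T cells.

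**Figure D3:**
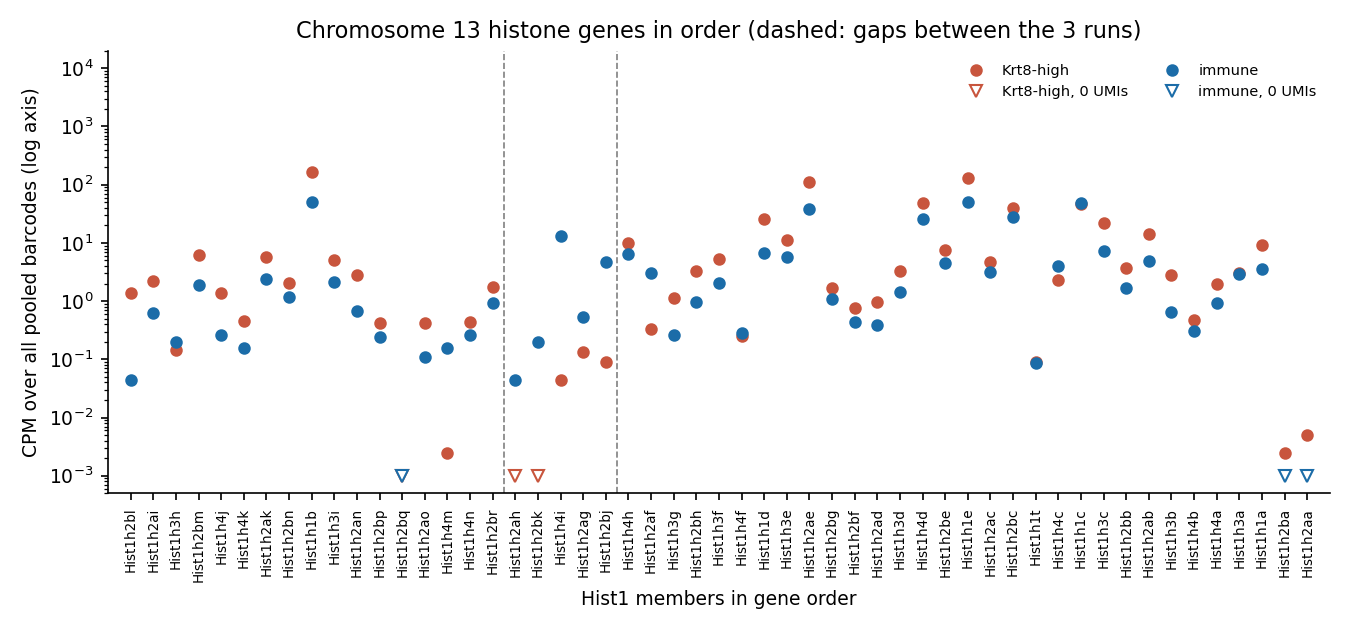
Pooled level (CPM, log axis) of the chromosome 13 histone genes in gene order, in Krt8-high and immune barcodes; open triangles are members with 0 UMIs, placed at a fixed height, and dashed lines are the gaps between runs. In the middle run all 5 members lie lower in Krt8-high barcodes.

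Each immune type was also set against Krt8-high barcodes in 1 fit over 11092 genes, in which 30 members were tested. Against monocytes 23 were higher in Krt8-high (44.9% of all tested genes) and 4 lower (41%), with a median of 2.04. Against tumour-associated macrophages 22 were higher (43.5%) and 5 lower (40.4%), with a median of 1.32. Against microglia 15 were higher (37.2%) and 7 lower (32.1%), with a median of 0.98. Without hashtag sample 6 the microglia count was 8 higher. Against NK cells 9 were higher (39.5%) and 7 lower (31.7%), with a median of 0.46, and without hashtag sample 5 the count was 4 higher. Against T cells 4 were higher (40.7%) and 9 lower (38.6%), with a median of -0.12. The Krt8-high samples are the same in all 5 comparisons. On which side each of the 30 members met the filter's limit was not counted in this fit.

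Single members differed between these comparisons. Hist1h4i was lower in Krt8-high barcodes in each, with fitted log2 values of -8.51 to -7.48. The Krt8-high samples, which are the same in each, held at most 0.06898 CPM of it. It was tested only through its immune level and had to differ, so these calls are not support for a direction. Hist1h1c had medians of 126 CPM in microglia, 75.46 in NK cells, 55.61 in T cells and 32.51 in monocytes. In Krt8-high against microglia it fell by 1.44 (adjusted p = 7.47e-06), against NK cells by 1.09 and against T cells by 0.50. Hist1h2bc had a median of 94.68 CPM in microglia, 14.37 CPM in monocytes and 9.193 CPM in T cells. Its log2 difference was -1.79 against microglia, 1.02 against monocytes and 1.76 against T cells, so its direction turned with the type. Hist1h1b had a median of 9.872 CPM in monocytes and of 133.7 CPM in T cells, where it ranged from 12.56 to 284.6 CPM over hashtag samples.

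Cell cycle scores were then used. Each Krt8-high barcode was thinned to 20000 UMIs, and the UMIs of 40 S-phase genes and 49 G2 and mitosis genes were counted in it. Cuts at 40 and 60 UMIs gave 4 bins: 1371 barcodes low for both, 311 S-high only, 1321 high for both and 1406 G2/M-high only. Near the S cut (within 5 UMIs) lay 679 of 4409 barcodes, and near the G2/M cut (within 10) lay 384. The scores draw ranges and not phases, and the S-phase and G2/M genes drew the bins, so they are not results here. The members were not in either list. Hashtag samples 2 to 8 had enough barcodes in every bin.

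Histone levels were high in the bins with a high G2/M score and low in the others. The summed level in Krt8-high barcodes had a median of 205.2 CPM in the low bin (177.5 to 273.8, n = 7) and of 212.2 CPM in the S-high only bin (180.2 to 241.1). It was 1662 CPM in the bin high for both (1494 to 1942) and 1032 CPM in the G2/M-high only bin (964 to 1375). The low and S-high bins overlapped, and each of the other bins lay above both without overlap. Median depth also differed, at 72762 UMIs in the low bin and 94215 in the bin high for both.

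**Figure D4:**
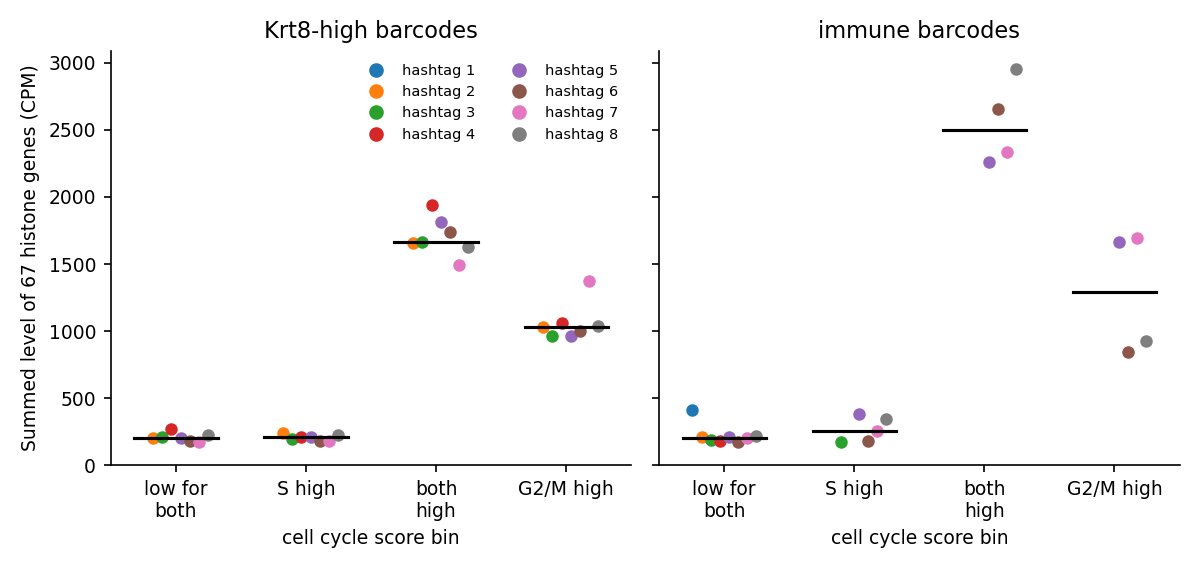
Summed level of the 67 histone genes (CPM) in 4 cell cycle score bins, in Krt8-high and immune barcodes; points are hashtag samples with at least 20 barcodes in the bin and lines are medians. In Krt8-high barcodes the medians are 205.2, 212.2, 1662 and 1032 CPM from left to right.

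Between the bin high for both and the low bin, 41 of 45 tested members rose, against 26.6% of 11248 tested genes, and 3 fell, against 31%. The median was 2.99, against -0.03 over all genes. Of the 45, 13 reached the filter's limit (0.8066 CPM) in no low-bin sample and entered the test through the other bins, so their count is no support. Of the other 32, 28 rose and 3 fell. Of the H1 genes, 5 of 5 rose, led by Hist1h1a with 6.00 (SE 0.18) and Hist1h1b with 5.68 (SE 0.10, adjusted p = 5.63e-31). Hist1h1b went from 4.151, 6.691 and 8.056 CPM in the low bin to 286.8, 327.1 and 375.7 CPM (lowest, median and highest of 7). Hist1h1e rose by 2.99, Hist1h1d by 3.65 and Hist1h1c by 1.40, the smallest H1 change, from a median of 22.59 to 64.74 CPM.

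Most tested members of each core class rose, against 26.6% of all tested genes. The 13 members whose rise is no support are all core genes and are counted here. Of the H2A genes 10 of 11 rose, among them Hist1h2ap, by 4.69 (SE 0.10), from 11.5 to 346.1 CPM at the median. Of the H2B genes 10 of 12 rose. Hist1h2bl, Hist1h2bm, Hist1h2bn, Hist1h2br, Hist1h2bg, Hist1h2bf and Hist1h2bb are among those without support. The fitted value of Hist1h2bm was 4.83 (SE 0.19). Of the H3 genes 9 of 10 rose, among them Hist1h3c, by 5.15 (SE 0.14). All 7 tested H4 genes rose, among them Hist1h4d, by 2.93 (SE 0.09). The 3 that fell were Hist2h3c2 (an H3 gene), by 1.09, Hist3h2a, by 0.97, and Hist1h2bc, by 0.96. Hist1h2bc was at 54.69 CPM at the median in the low bin and 26.51 CPM in the bin high for both. Hist2h2be had 0.17 (adjusted p = 0.396).

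Gene length in the annotation was set beside these values. RefSeq gives 6 members a span over 1000 bases, against a median of 492.5 bases over the members with a match. They are Hist1h2be, Hist1h2bp, Hist1h2bc, Hist1h2bq, Hist1h2br and Hist2h2be, all H2B genes. The 4 of them that were tested had a median change of 0.80, against 3.11 for the 40 shorter members, and ran from -0.96 for Hist1h2bc to 3.76 for Hist1h2br. The threshold was set after the changes had been seen, so this is a description with no test. Hist1h2br and some of the shorter members met the filter's limit in no low-bin sample.

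A high S score alone went with few changes. Between the S-high only and the low bin 4 members rose, against 16.1% of all tested genes, and 5 fell, against 14%. Those that rose were Hist1h1b, by 1.62 (SE 0.19), Hist1h3c, by 1.35, Hist1h2ap, by 1.06, and Hist1h3a, by 0.98. Hist2h3c2, Hist3h2a, Hist2h2be, Hist1h2bc and Hist1h1c fell. Between the G2/M-high only and the low bin 41 rose, against 27.1%, and 1 fell, against 30.4%, with a median of 2.65. The 41 were the same genes as those higher in the bin high for both. They therefore include the 13 that met the filter's limit in no low-bin sample. These comparisons share the low bin.

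Direct comparisons separated the other bins. Between S-high only and G2/M-high only barcodes none of 45 members was higher, against 17.1% of all genes, and 45 were lower, against 16.6%, with a median of -2.41. Even Hist1h2bc, which fell with both scores, differed by -0.49 (adjusted p = 0.0133). The 45 include the 13 members that met the filter's limit in no low-bin sample, and the limit was not checked in the S-high only bin. A member that entered the test through the bins with a high G2/M score had to be lower here. The count of 45 is therefore not support for every member. By edgeR none of the 45 was higher at an unadjusted p under 0.05 either (count 0), and by DESeq2 the count was also 0. Between the bin high for both and the G2/M-high only bin 29 were higher, against 15.1%, and 3 lower, against 14.8%, with a median of 0.49. Hist1h1a differed most there, by 1.84 (SE 0.10), from 5.637 to 22.89 CPM at the median. Tertiles of the S score drawn without regard to G2/M gave 39 members higher in the upper tertile, against 22.5% of all tested genes.

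Over single thinned barcodes the summed member UMIs had a Pearson r of 0.3891 and a Spearman rho of 0.3914 with the S-phase UMIs (n = 4409 Krt8-high barcodes). With the G2/M UMIs the values were 0.4044 and 0.4854. The barcodes share 1 capture and were thinned to the same depth, and both counts are sparse, so these values are descriptions.

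Other genes of histone supply moved less. Of 26 tested genes of histone mRNA transcription and 3′ processing 20 rose with both scores, against 26.6% of all tested genes. There 3 fell, against 31%, and the median was 0.36. Slbp, the stem-loop binding protein, rose by 0.94 (SE 0.04), Npat, the coactivator of the clusters, by 0.37 (SE 0.05), and Cdk2, whose kinase acts on Npat, by 1.06. Of 23 histone chaperones 18 rose and 1 fell, against the same shares of all genes. Asf1b, which carries new H3 and H4, rose by 2.79, and Dnajc9 by 1.97. Of 9 replication-independent histones 7 rose and 1 fell, against the same shares of all genes. Cenpa, the centromeric H3, had 2.31 and is counted in the 7. It is also in the G2 and mitosis list that drew the bins, so its rise is not a result. H2afz rose by 0.96 and H2afx by 0.85. H3f3b, which encodes H3.3, rose by 0.44, and H3f3a, the other H3.3 gene, had -0.05 (adjusted p = 0.189). H2afj fell by 0.16.

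In Krt8-high against immune barcodes the S-phase and G2/M lists were higher in nearly all members and the other lists ran both ways. Over all tested genes 41.3% were higher and 44.8% lower. Of the 40 S-phase genes 38 were higher and 1 lower, which was Pcna, the replication clamp, at -1.005. Of 48 tested G2 and mitosis genes 43 were higher and 4 lower, among them Mki67, at -0.55. Of 27 processing genes 17 were higher and 9 lower. Npat had 0.85, Slbp -0.42, Ccne1 1.78 and Mif4gd, which binds Slbp, -2.04. Cstf2t, a paralogue of the cleavage factor gene Cstf2, had -9.12, while Cstf2 had 1.25. Of 23 chaperones 14 were higher and 3 lower, with Chaf1a, a subunit of the replication-coupled chaperone CAF-1, at 2.35 and Daxx, an H3.3 chaperone, at -1.97. Of 10 replication-independent histones 5 were higher and 5 lower, close to the shares of all genes. H1fx had -8.12, H3f3b -1.84, H3f3a -1.04, H2afx 0.85 and H2afz 0.22. On which side Cstf2t and H1fx met the filter's limit was not counted, so their fitted values are not read as folds.

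Immune barcodes were binned in the same way after thinning to 3000 UMIs, with cuts at 4 and 9 UMIs. There were 3188 barcodes low for both, 349 S-high only, 168 high for both and 198 G2/M-high only, and hashtag samples 5 to 8 had enough in every bin. The summed level had medians of 207.2 CPM in the low bin (175.1 to 408.9, n = 8) and 255 CPM in the S-high only bin (172 to 380.5, n = 5). It was 2496 CPM in the bin high for both (2264 to 2951, n = 4) and 1294 CPM in the G2/M-high only bin (843 to 1692, n = 4). The bin high for both lay above every other bin. T cells made up 17.31% of the low bin, 42.98% of the S-high only bin, 55.95% of the bin high for both and 45.96% of the G2/M-high only bin.

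With both scores high 21 of 23 tested members rose, against 22% of 7622 tested genes, and 1 fell, against 22.3%, with a median of 4.27. Of the 23, 18 reached the filter's limit (14.1426 CPM) in no low-bin sample and entered the test through the other bins, so their count is no support. Of the other 5, 3 rose and 1 fell. Hist1h3c rose by 7.69 (SE 0.28), from between 0.2057 and 0.5349 CPM to between 70.13 and 93.49 CPM in the 4 samples, Hist1h2af by 8.03 (SE 0.51) and Hist1h2bj by 5.91 (SE 0.45). Hist1h1b rose by 6.45 (SE 0.31). Hist1h4i, with 1.98 (SE 0.29), and Hist1h1c, with 1.26 (SE 0.18), rose less, and Hist3h2a fell by 1.20. Hist1h3c, Hist1h2af, Hist1h2bj, Hist1h1b and Hist1h4i are among those 18, and Hist1h1c and Hist3h2a are not. In T cell barcodes alone, from 2 hashtag samples, 22 of 25 tested members rose, against 8.37%, and none fell, against 5.74% (1 at an unadjusted p under 0.05 by edgeR). How many of these 25 met the filter's limit in no low-bin sample was not counted, so this count is no support for a rise within that type. Of the 20 members tested in both Krt8-high and immune barcodes, 18 rose in each and the same 18 in both. Most of the 20 met the filter's limit in no immune low-bin sample, so this overlap is no support for a shared rise.

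The other immune bins repeated the order of levels. The same 23 members were tested, and the 18 that met the filter's limit in no low-bin sample are counted again here. With only the S score high 9 members rose, against 8.23%, and none fell, against 7.35% (by edgeR 1 at an unadjusted p under 0.05, by DESeq2 0). That count was 4 without hashtag sample 5, 5 without sample 7 and 1 without sample 8. The members were Hist1h3c, Hist1h2ab, Hist1h1b, Hist1h2bm, Hist1h2bj, Hist2h2bb, Hist1h2ae, Hist1h2ap and Hist1h1e. With only the G2/M score high 22 rose, against 11%, and none fell, against 11.7% (0 at an unadjusted p under 0.05 by edgeR and 0 by DESeq2). Hist1h2bc rose there by 2.67 (SE 0.39, adjusted p = 0.000125), from between 15.31 and 27.52 CPM to between 50.63 and 311.6 CPM in the 4 samples, whereas in Krt8-high barcodes it fell by 0.39. That pair of changes was not tested against each other. Between S-high only and G2/M-high only none was higher, against 1.61% (0 at an unadjusted p under 0.05 by edgeR and 0 by DESeq2), and 14 were lower, against 2.61%, or 9 without hashtag sample 5.

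The rise itself was tested for a difference between Krt8-high and immune barcodes, in 41 members over hashtag samples 5 to 8. It was larger in Krt8-high barcodes for 2 members, against 18.7% of all tested genes, and smaller for 11, against 6.4%, with a member median of -0.58. The genes that drew the bins also rose less in Krt8-high barcodes: 30 of 40 S-phase genes, with a median of -1.47, and 28 of 49 G2 and mitosis genes, with a median of -0.70. The bins therefore span unlike ranges on the sides, and the part of this in the members' difference was not tested. Those with a smaller rise included Hist1h3c, by -2.31 (SE 0.54, adjusted p = 0.0027), Hist1h2ae, by -1.44 (SE 0.27), Hist1h2bm, by -1.56, and Hist1h2ap, by -0.57. Those with a larger rise were Hist1h1c, by 0.45, and Hist2h2aa1, by 0.94. Of the members named here, all but Hist1h1c are among the 18 that reached 14.1426 CPM in no immune low-bin sample. How many of the 41 met this fit's own limit in that bin was not counted. The counts of larger and smaller rises are therefore no support for a difference. Scaling by library totals moved the median of all genes by -0.36 and gave 15 smaller. Leaving out hashtag samples 5, 7 and 8 in turn gave 4, 7 and 3 smaller. For the S-high only rise 1 member, Hist1h2ab, was smaller in Krt8-high barcodes, by -2.09, against 0.925%, and none was larger, against 3.73% (0 at an unadjusted p under 0.05 by edgeR and 0 by DESeq2).

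**Figure D5:**
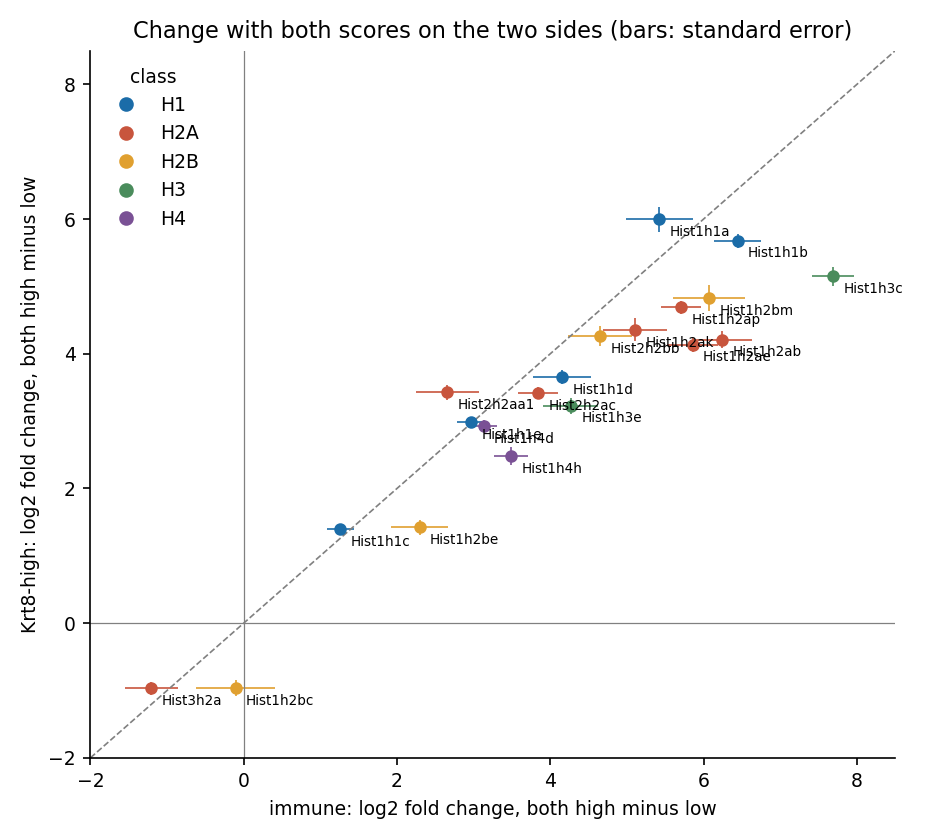
Log2 change between the bin high for both scores and the low bin, in immune (horizontal axis) and Krt8-high barcodes (vertical axis), for the 20 members tested in both; bars are standard errors and the dashed line marks equal change. Hist1h3c, at 7.69 and 5.15, lies farthest below the line, and Hist1h1c lies near it at 1.26 and 1.40.

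Finally, Krt8-high barcodes were divided by total UMIs, and the upper and lower tertile of 1474 barcodes each, with medians of 118701 and 61325.5 UMIs, were compared over hashtag samples 2 to 8. The summed level was 410.3, 500.4 and 608.9 CPM (lowest, median and highest) in the lower tertile and 1077, 1326 and 1556 CPM in the upper tertile, without overlap. Of 44 tested members 37 were higher in the upper tertile, against 16.4% of 11076 tested genes, and 2 lower, against 18.5%, with a median of 1.52. All 37 were among the members that rose with both scores. Hist1h1b went from 58.28 to 221.6 CPM and Hist1h2ap from 86.76 to 254.6 CPM at the median. Hist1h2bc fell by 0.93 (SE 0.07, adjusted p = 2.24e-08) and Hist3h2a by 0.24.

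The bins moved with depth. Barcodes low for both scores made up 46.63% of the lower and 17.23% of the upper tertile, and barcodes high for both 16.37% and 38.4%. Within the low bin alone, none of 12 tested members was higher in the upper tertile by edgeR, against 5.03% of all tested genes, also at an unadjusted p under 0.05 (count 0). There 3 were lower, against 5.22%, namely Hist1h2bc, Hist1h1c and Hist3h2a. After thinning every barcode to 5000 UMIs, 10 of 12 tested members were higher, against 6% of all tested genes. Over single Krt8-high barcodes, the Spearman rho of the thinned member UMIs with total UMIs was 0.2803 (n = 4409), and that of the thinned G2/M UMIs was 0.3204. Over immune barcodes the values were -0.1103 and -0.1931 (n = 3903). These are descriptions of sparse counts.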

How the data were processed

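The transcript, antibody and hashtag libraries of 1 capture were deposited as 1 matrix of raw UMI counts, with features in rows and barcodes in columns. Per the submitters' processing notes the authors used Cell Ranger 3.1 with build mm10, and Seurat 3.1.1. The gene annotation was not given in the sources used here. Of 12908 deposited barcodes 12334 passed limits of 500 genes (minimum) and 15% mitochondrial UMIs (maximum). HTODemux in Seurat 5.3.0 assigned hashtags (quantile 0.99), and 1712 doublets and 726 negatives were left out; no other doublet caller was run. Types were gated on the UMIs of fixed marker lists. The planned count of own markers could not be used for the carcinoma gate, which rests on Krt8.

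Counts were summed per hashtag sample and group, with at least 20 barcodes a sum, and tested with edgeR 4.0.16 (TMM scaling, filterByExpr, quasi-likelihood, hashtag sample as a block) in R 4.3.3. The block rests on shared hashtags: sums of the same hashtag come from the same hashed sample. Adjusted p-values are Benjamini-Hochberg over all tested genes, with a threshold of 0.05. Alternatives used DESeq2 1.42.0, no filter, no block, library totals, other hashtag calls, other gates, thinning to 5000 UMIs and each hashtag sample left out. The edgeR script was tested on simulated data.

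The members and lists were chosen with earlier results of these data known. Named genes were, per class, the 4 members with the highest CPM and the 3 with the largest called difference between Krt8-high and immune barcodes, and from each other list the 2 highest and 2 lowest called genes plus 8 fixed genes. Other members and neighbours named in the text, such as Hist2h3c2, Hist2h2be, Hist1h2bk or Prss16, were chosen after their values were seen. Intervals cover counting error only. Motifs were searched in RefSeq promoters of GRCm38.p6. The antibody tags were not used.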

Additional observations from a re-analysis of the deposited data

Results flagged for a closer look

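In groups of 4 to 10 hashtag samples, a sample was listed where its gap to the nearest other value was large for the range of its group (Dixon's criterion). Of 76 groups looked at, 22 met this, and chance gives about 1 in 20 groups. Most came from hashtag sample 1 in immune barcodes, where it held 31 barcodes. Its summed neutrophil markers were at 6518 CPM there, against 279.7 to 3435 CPM in the others; their part in these values was not tested. Its summed member level was 1035 CPM, against 338.3 to 478.6 CPM, and 408.9 CPM in the low bin, against 175.1 to 216 CPM. Its immune levels of H1 genes stood apart at 133 CPM for Hist1h1b, 121.5 CPM for Hist1h1c and 89.64 CPM for Hist1h1e. Those of core genes stood apart at 104.1 CPM for Hist1h2ap, 17.35 CPM for Hist1h2be, 34.7 CPM for Hist1h3e, 11.57 CPM for Hist1h4c, 23.13 CPM for Hist1h4h, 34.7 CPM for Hist1h4i, 2.892 CPM for Hist1h4j, 14.46 CPM for Hist2h2bb and 17.35 CPM for Hist3h2ba. In Krt8-high barcodes its values were 0.4802 CPM for Hist1h2bj and 2.881 CPM for Hist1h3g. Hist1h2bj had 36 UMIs in all Krt8-high barcodes and Hist1h4j 12 in all immune barcodes, so both flagged values rest on very few molecules.

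Hashtag sample 4 stood apart in inflammatory monocytes, with a summed level of 727.2 CPM against 151.9 to 276.8 CPM. It also did so in immune barcodes for Hist1h2bl at 1.008 CPM, Hist1h3c at 26.2 CPM and Hist1h3g at 1.008 CPM. Over all immune barcodes Hist1h2bl had 2 UMIs and Hist1h3g 12, so their flagged values rest on single molecules. Hashtag sample 7 had the highest summed level in the G2/M-high only bin of Krt8-high barcodes, 1375 CPM against 964 to 1059 CPM. Hashtag sample 3 had 3.653 CPM of Hist4h4 in immune barcodes, against at most 1.669 CPM.

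The change between the bin high for both scores and the low bin differed between Krt8-high and immune barcodes, by edgeR's test of the difference itself, for 13 members. On the log2 scale (Krt8-high minus immune) the differences were -4.86 for Hist1h3b, -2.71 for Hist1h2bb, -2.309 for Hist1h3c, -2.207 for Hist1h2bh, -1.808 for Hist1h3d, -1.73 for Hist1h2bg, -1.719 for Hist1h2ab, -1.559 for Hist1h2bm, -1.444 for Hist1h2ae, -1.3 for Hist1h3a, -0.572 for Hist1h2ap, 0.453 for Hist1h1c and 0.936 for Hist2h2aa1. For Hist1h3b all immune samples were at 0 CPM in the low bin, so its value depends on the prior count and is no fold. Which of the other members met the filter's limit in the immune low bin was not counted for this test. For the S-high only bin against the low bin the difference was -2.092 for Hist1h2ab.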

How the results depend on the processing

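Over the member counts of the comparisons, 251 alternative values stayed within 1.5 times the reported count and 26 did not. DESeq2 moved 1 of them, the count against microglia, from 15 to 9 higher. Removing the replicate block changed no count by more than 1.5 times: in Krt8-high against immune barcodes 29 were higher and 7 lower with and without it. The hashtag margin rule, doubled gate limits, immune barcodes with no Krt8 or Krt18 UMI and those up to 30000 UMIs moved no count that far.

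In Krt8-high against immune barcodes, thinning to 5000 UMIs left 18 members tested, 12 higher and 3 lower. With no filter 11 were lower. Barcodes low for both scores gave 4 higher, and barcodes high for both 1 higher and 23 lower. Tertiles of the S score gave 39 members higher, against 4 for the S-high only bin. With no filter the immune bins gave 43 higher with both scores, 34 higher with G2/M and 23 lower for S-high only against G2/M-high only. Leaving out a hashtag sample gave 1 to 8 higher for S-high only (9 with all), 9 to 12 lower for S-high only against G2/M-high only (14 with all), 3 to 8 for the smaller rise in Krt8-high barcodes (11 with all), 8 to 16 against microglia and 4 to 10 against NK cells. With no filter the counts against monocytes, tumour-associated macrophages, T cells and NK cells were 42, 42, 12 and 17 higher. For total UMIs, thinning gave 10 higher and the low bin 0. The share of all tested genes was not taken with no filter or with a hashtag sample left out. Nor was it taken for the thinned comparison of Krt8-high with immune barcodes, so those counts stand without a background.

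Signs of single members in Krt8-high against immune barcodes turned mostly in the score bins. In barcodes high for both the log2 differences were -0.76 for Hist1h1a, -0.81 for Hist1h1b, -0.07 for Hist1h1d, -0.23 for Hist1h1e, -0.89 for Hist1h2ae, -0.72 for Hist1h2be, -1.04 for Hist1h2bm, -0.83 for Hist1h3b, -1.13 for Hist1h3c, -1.24 for Hist1h3e, -1.15 for Hist1h3f, -0.31 for Hist1h3g, -1.17 for Hist1h3i, -0.96 for Hist1h4d, -1.53 for Hist1h4h, -0.20 for Hist2h2ac, -0.43 for Hist2h2bb and -0.20 for Hist4h4. In barcodes low for both they were -0.18 for Hist1h1b, -0.37 for Hist1h1e, -0.47 for Hist1h3e, -0.86 for Hist1h4d, -0.45 for Hist1h4h and -0.20 for Hist4h4, and after thinning -0.24 for Hist1h4h. Hist1h2bc, at -0.11 and not called, had 0.00 with DESeq2, 0.29 with no filter, 0.27 with library totals, between -0.21 and 0.11 without 1 hashtag sample, 0.13 with doubled gate limits, 0.12 with immune barcodes up to 30000 UMIs, 0.88 in the low bin and 0.13 in the bin high for both. Where a value turned, the cause was not tested.

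Depth limits the immune side, where 8314 UMIs per barcode at the median left members such as Hist1h2bl at 2 UMIs. All samples share 1 capture, gates rest on few markers, and free RNA was not measured: Krt8 itself was at 11.93 CPM in immune barcodes.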

Other observations

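Endothelial cells, which were in no comparison, had member levels that lay on either side of those in Krt8-high barcodes. Hist1h1b was at 17.4 CPM in the lowest, 115.1 at the median and 162 in the highest of 7 hashtag samples, and Hist1h2ap at 23.2, 103.2 and 117.2 CPM. Krt8-high samples had 134.3 to 212.5 CPM of Hist1h1b, which overlapped, and 152.2 to 215.1 CPM of Hist1h2ap, which lay above. Hist1h2bc, at 72.7, 83.15 and 117 CPM, lay above the 8 Krt8-high samples, which reached 60.9 CPM. It also lay above all 6 T cell samples, which reached 16.5 CPM, and all 7 monocyte samples, which reached 19.22 CPM. It overlapped microglia, at 40.34, 94.68 and 219.7 CPM, and tumour-associated macrophages, which reached 126.8 CPM. The 1 neutrophil sample was at 102.6 CPM. After thinning to 3000 UMIs a member UMI was present in a median of 63.64% of endothelial barcodes (82.29% without thinning). No test was made.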
